A study of Mus musculus with 12 samples.

Results

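Deubiquitinating enzymes are proteases that cut ubiquitin from proteins or from ubiquitin chains. They work against ubiquitin ligases, spare proteins from the proteasome, recycle ubiquitin and edit signals on histones and membrane receptors. Most belong to the ubiquitin-specific protease (USP) family, and smaller families are the ubiquitin C-terminal hydrolases (UCH), the ovarian tumour domain proteases (OTU) and the Josephin proteases. In spermatids, ubiquitin is known for its part in histone removal, acrosome formation and the clearing of cytoplasm. The members described here were taken by symbol, as the genes whose names begin with Usp and a digit, Uspl1, Uchl, Otud, Otub or Josd. The rule itself uses no measured value, but it was set with earlier results of these data known. There were 67 of them among 28643 symbols in the deposited table, and all 67 were found in the annotation, on 20 chromosomes. The rule goes by name and also takes in genes that are not ubiquitin proteases. Usp6nl is a GTPase-activating protein of Rab proteins, and Usp46os1 and Usp46os2 are noncoding RNAs transcribed antisense to Usp46. Usp18 acts on the ubiquitin-like protein ISG15 and Uspl1 on SUMO, Usp39 is a splicing factor, and Usp53 and Usp54 have long been classed as inactive.

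The cells were round spermatids, the haploid cells that follow meiosis, taken from male mice of 8 weeks of age and sorted by flow cytometry with cycloheximide present. Igf2bp3-/- mice carried a frameshift in Igf2bp3, which encodes a reader of N6-methyladenosine in mRNA, made with CRISPR/Cas9 in C57BL/6 zygotes, and Igf2bp3+/- mice, which carried 1 intact copy, were the controls. By the study's methods, Igf2bp3-/- males with impaired fertility were the ones chosen for these experiments. RNA-seq measured the total input. RNC-seq measured ribosome nascent-chain complexes, here the mRNAs found with at least 4 ribosomes in a sucrose gradient. Each genotype had 3 replicates in each assay, which made 12 libraries.

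Values are FPKM, a read density scaled by the length of the transcript and by the size of the library. Read depth is unknown, and a relative depth read from the lowest values ranged from 0.366 to 1 of that of the deepest library. Igf2bp3 itself ranged from 33.4 to 38.6 FPKM in Igf2bp3+/- RNA-seq and from 31.4 to 32.5 in Igf2bp3-/- RNA-seq, and since a frameshift need not change the level of the transcript, this level does not check the labels. The summed FPKM of 6 round spermatid markers was 821.5 to 961 in Igf2bp3+/- RNA-seq and 999.7 to 1180.5 in Igf2bp3-/- RNA-seq, and that of 7 Sertoli cell markers was at most 1.15 in any library. Markers of interstitial cells differed between the genotypes. The 7 Leydig cell markers summed to 15.4 to 22.6 FPKM in Igf2bp3+/- RNA-seq against 48.6 to 55.0 in Igf2bp3-/- RNA-seq, and to 6.75 to 14.3 against 51.5 to 102.9 in RNC-seq, and none of the 7 was at 0 throughout. The 8 macrophage and blood markers summed to 4.74 to 5.71 against 11.1 to 12.1 FPKM in RNA-seq. Because the samples are bulk RNA, fewer cells of a type and less RNA per cell cannot be told apart. Nothing in the labels says that replicates came from separate litters or days, and p-values measure the spread between these samples.

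Most members were detected in round spermatids. In Igf2bp3+/- RNA-seq the median member stood at 10.1 FPKM, against 0.553 FPKM over all genes, and 55 members (82.1%) were above 1 FPKM, against 43.2% of all genes. The set of all genes here holds 28643 symbols, noncoding ones included, while 65 of the 67 members are protein coding. A background of coding genes alone was not taken, so these values do not set the family apart from other coding genes. By level, 15 members were above 30 FPKM, 19 lay between 10 and 30, 21 between 1 and 10 and 11 between 0.1 and 1. Usp18, the interferon-induced protease of the ubiquitin-like protein ISG15, was listed at 0 in 11 of 12 libraries and did not pass the filter of a mean FPKM above 0.1, so tests cover the other 66 members. The members together took 0.381 to 0.402% of the summed FPKM of an RNA-seq library.

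The most abundant member was Usp2, a protease known for a high level in late germ cells and for the subfertility of male mice that lack it. It lies on chromosome 9 (44067021 to 44095627, GRCm38) and was at 330.0, 386 and 372 FPKM in the Igf2bp3+/- RNA-seq libraries. None of these overlapped the values of the next member, and Usp2 alone held 18.5 to 20.3% of the members' summed FPKM in Igf2bp3+/- RNA-seq. Usp44, which removes ubiquitin from histone H2B and acts in the mitotic checkpoint, followed at 141, 143 and 167 FPKM. Usp50 stood at 130.3, 158 and 118 FPKM. Otub2, an OTU protease, stood at 118, 122 and 118 FPKM. Usp50 overlapped Usp44, Otub2 and Uchl3, and Otub2 overlapped Uchl3, while all libraries of Usp44 lay above those of Otub2 and Uchl3.

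Below them the libraries separated in part. Uchl3, a hydrolase of ubiquitin and of the ubiquitin-like protein NEDD8, was at 124, 112 and 110.4 FPKM and did not overlap Usp8, which deubiquitinates cargo on endosomes and was at 89.2, 89.7 and 96.7 FPKM. Usp16, a histone H2A deubiquitinase, overlapped both Usp8 and Usp4, with means of 85.7 ± 13.8 and 84.7 ± 3.89 FPKM (SD, n = 3) for Usp16 and Usp4. Usp1 (71.3 ± 2.30 FPKM), which acts on the DNA repair proteins FANCD2 and PCNA, and Usp47 (58.6 ± 1.48 FPKM) came next. All libraries of Usp1 lay below those of Usp4, but Usp1 overlapped Usp16, whose replicate 3 was at 69.8 FPKM. All libraries of Usp47 lay below those of Usp1. Uchl1, abundant in neurons and known in spermatogonia, was at 5.05 ± 1.10 FPKM, and Usp26, an X-linked gene known for expression in testis, at 0.620 ± 0.155 FPKM.

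**Figure D1:**
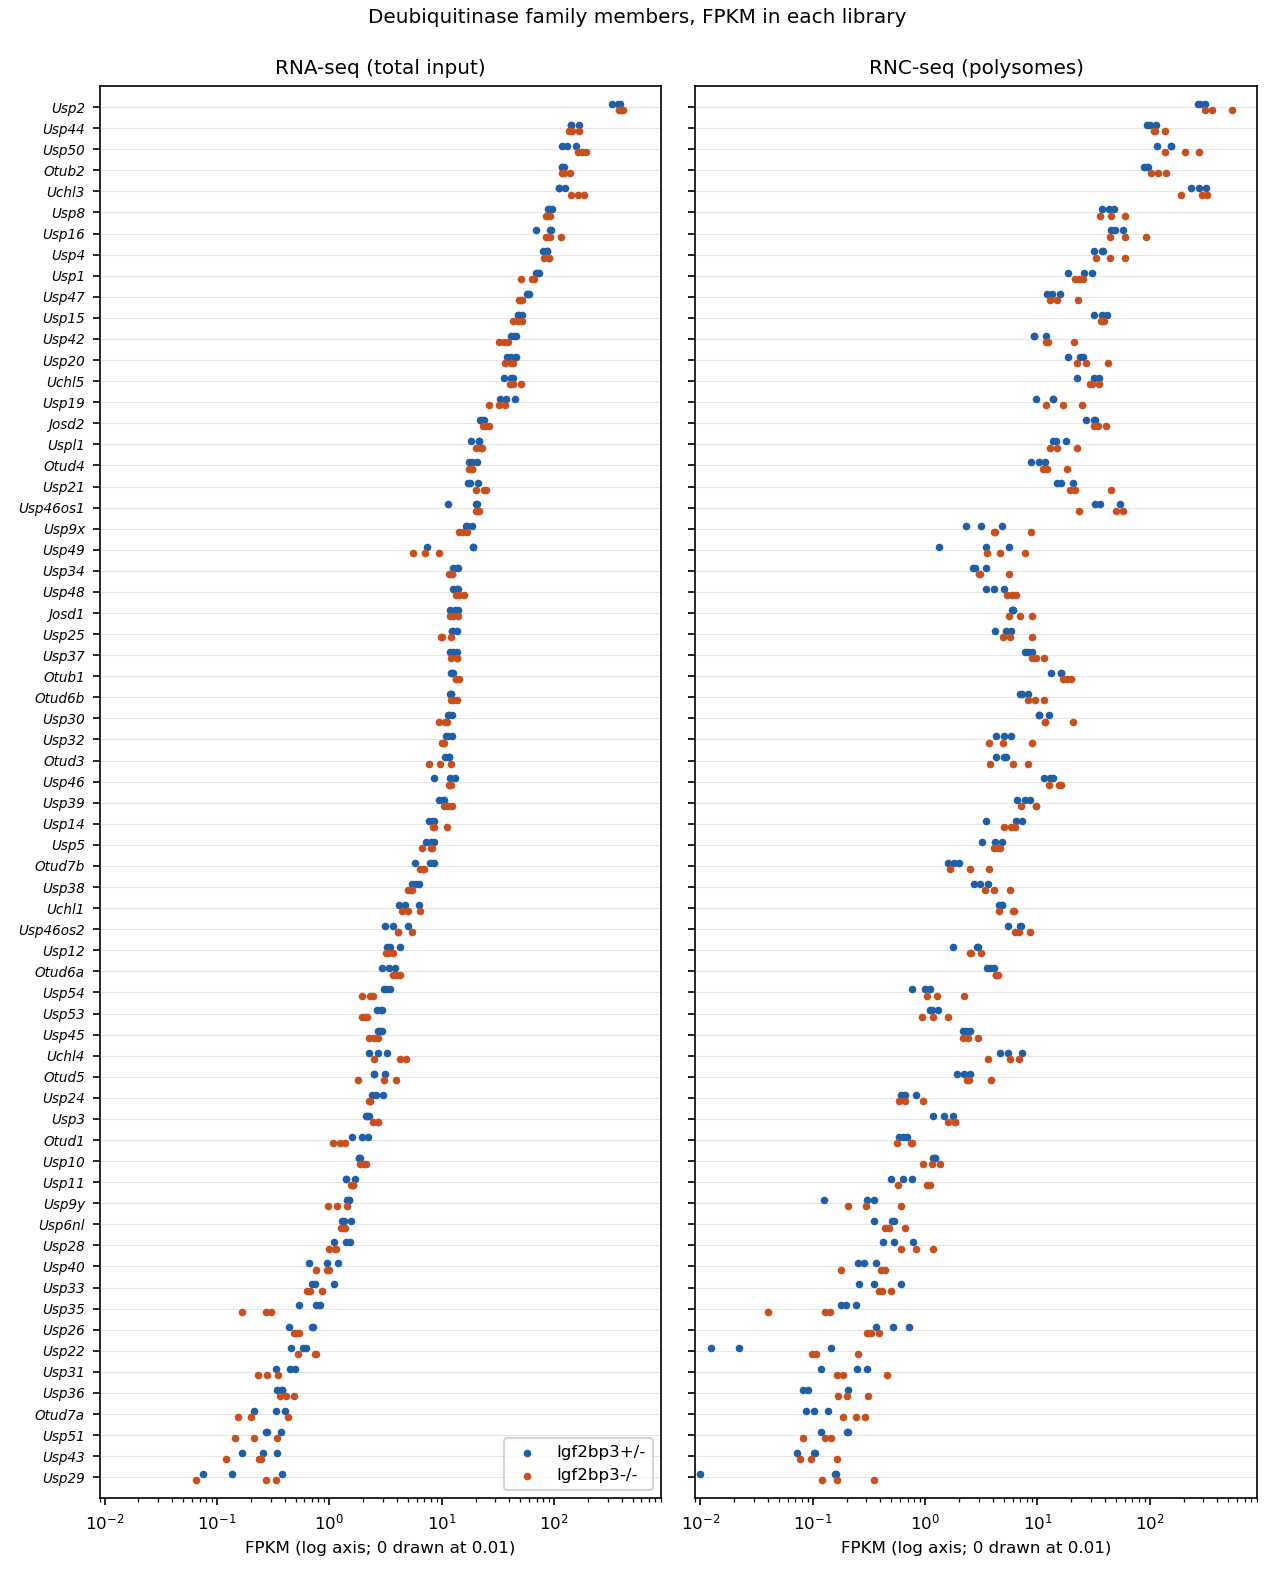
FPKM on a log axis for 66 members in each of the 3 Igf2bp3+/- (blue) and 3 Igf2bp3-/- (orange) libraries of RNA-seq (left) and RNC-seq (right), ordered by the mean in Igf2bp3+/- RNA-seq, with Usp18 left out. The order of the right panel departs from that of the left mainly by members that drop to the left of their neighbours, such as Usp9x, Usp34, Usp42 and Usp47, and by Uchl3, which moves to the right.

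Polysome loading, the difference between RNC-seq and RNA-seq of the same genotype on the log2 scale, set the family apart from the average transcript. In Igf2bp3+/- spermatids, 41 of 66 members were lower in RNC-seq than in RNA-seq and 5 were higher (limma, adjusted p under 0.05), where 25.2% of all 18414 genes tested were lower and 18.6% higher. The median member had a loading of -0.87, or 54.7% of its RNA-seq level, against -0.10, or 93.2%, over all genes. The libraries of the assays did not overlap, with RNC-seq lower, for 51 members (32.9% of all genes), and with RNC-seq higher for 6 (22.7%). FPKM is relative within a library, and loading therefore describes a transcript beside the other transcripts of the same gradient. The members took 0.231 to 0.259% of the summed FPKM in the Igf2bp3+/- RNC-seq libraries. Within that smaller sum, the 5 members with the highest RNA-seq level held 61.2 to 62.9%, against 47.3 to 48.3% in Igf2bp3+/- RNA-seq.

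On the log2(FPKM + 0.1) scale the lowest loading was that of Usp9x, a large X-linked deubiquitinase related to the fat facets gene of Drosophila, on chromosome X (13071498 to 13173328, GRCm38). In Igf2bp3+/- it stood at 16.6, 18.5 and 16.7 FPKM in RNA-seq and at 3.17, 2.32 and 4.82 FPKM in RNC-seq, a log2 difference of -2.36 ± 0.28 (SE, adjusted p = 4.13e-05 in limma). The RNC-seq libraries all lay below the RNA-seq libraries, at 19.5% of their level. Its Y-linked relative Usp9y, whose mean level is low, showed a difference of -2.19 ± 0.34. By the plain ratio of mean FPKM, RNC-seq over RNA-seq, Usp22 (10.8%) and Usp9y (17.6%) lay below Usp9x (19.9%). Usp34, a regulator of Wnt signalling, went from 12.5, 13.9 and 13.7 FPKM in RNA-seq to 2.78, 2.66 and 3.51 in RNC-seq (-2.14 ± 0.21, limma adjusted p = 1.21e-05). Usp42, which can remove ubiquitin from histone H2B, went from 41.7, 45.8 and 44.5 to 9.30, 9.28 and 11.9 FPKM (-2.11 ± 0.20, limma adjusted p = 8.45e-06). Usp47, which acts on the repair enzyme DNA polymerase beta, had 58.3, 57.3 and 60.2 FPKM in RNA-seq and 12.1, 13.6 and 15.7 in RNC-seq. In all 3 the assays stood far apart compared with the spread between libraries. Usp34 shares 11.6% of its exonic bases with Ahsa2 on the other strand, so its values are uncertain. Otud7b, an OTU protease for lysine-11-linked chains, had a loading of -1.97 ± 0.25, Usp24 one of -1.80 ± 0.22, and Usp54, long classed as a USP without activity, one of -1.68 ± 0.25.

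Usp49, an H2B deubiquitinase that bears on splicing, had a loading of -2.19 ± 0.47, but 51.2% of its exonic bases are shared with a gene on the same strand and its libraries varied widely. Its RNA-seq FPKM was 7.37, 19.1 and 18.8 and its RNC-seq FPKM 3.46, 1.32 and 5.55, so the loading of this gene rests on scattered values. Usp22, the deubiquitinase of the SAGA complex, was near the floor of the measurement, at 0.550 ± 0.0838 FPKM in RNA-seq and 0.0595 ± 0.0733 in RNC-seq (-2.11 ± 0.36).

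From RNA-seq to RNC-seq 5 members passed as higher, and 2 of these were the noncoding RNAs. Uchl3 went from 124, 112 and 110.4 FPKM to 315, 234 and 276 FPKM, a difference of 1.24 ± 0.19 (limma adjusted p = 0.000212), and became the member next to Usp2 in RNC-seq. Josd2, a Josephin protease, went from 23.6, 21.8 and 22.8 to 31.8, 32.6 and 27.0 FPKM (0.41 ± 0.14, limma adjusted p = 0.0253). The call for Josd2 was lost without Igf2bp3+/- replicate 1 (adjusted p = 0.128 in limma) and without replicate 2 (0.156). Usp46os1 went from 20.5, 20.2 and 11.4 to 54.6, 32.8 and 35.8 FPKM (1.25 ± 0.31), and Usp46os2 had a difference of 0.73 ± 0.21, whose call was lost without Igf2bp3+/- replicate 2 (adjusted p = 0.0864 in limma). Both overlap Usp46 on the other strand, over 14.6% and 29.8% of their exonic bases, and whether strand was used in the quantification is not stated. Usp46, the deubiquitinase on the sense strand, had a loading of 0.22 ± 0.17 that did not pass. Otub1, an OTU protease for lysine-48-linked chains, had 12.4, 12.7 and 12.1 FPKM in RNA-seq and 16.1, 16.3 and 13.3 in RNC-seq, without overlap, and did not pass either (0.29 ± 0.14, limma adjusted p = 0.101).

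The remaining member that rose was Uchl4, an intronless relative of Uchl3 on chromosome 9 (64235201 to 64236362), whose 2.24 to 3.24 FPKM in Igf2bp3+/- RNA-seq became 4.63 to 7.31 in RNC-seq (1.05 ± 0.28, limma adjusted p = 0.00862). Its call was lost without Igf2bp3+/- replicate 3 (adjusted p = 0.0657 in limma). Uchl4 matches Uchl3 at 675 of 693 aligned coding bases (97.4%), and reads can be split between them, so its values are uncertain beside a gene that is far more abundant. Where they differ most densely is shown by bases 104 to 133 of each annotated coding sequence (GENCODE M21, GRCm38), with the bases that differ in capitals.
Uchl3: acggAatggagCctgaacttcttagcatGG
Uchl4: acggGatggagTctgaacttcttagcatCA
This stretch was chosen because it holds 4 of the differing bases, the most in any ungapped stretch of its length, and it is less alike than the whole. The same doubt holds for Usp1, whose transcript matches Gm5841 at 97.9% identity over 60.9% of its length.

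**Figure D2:**
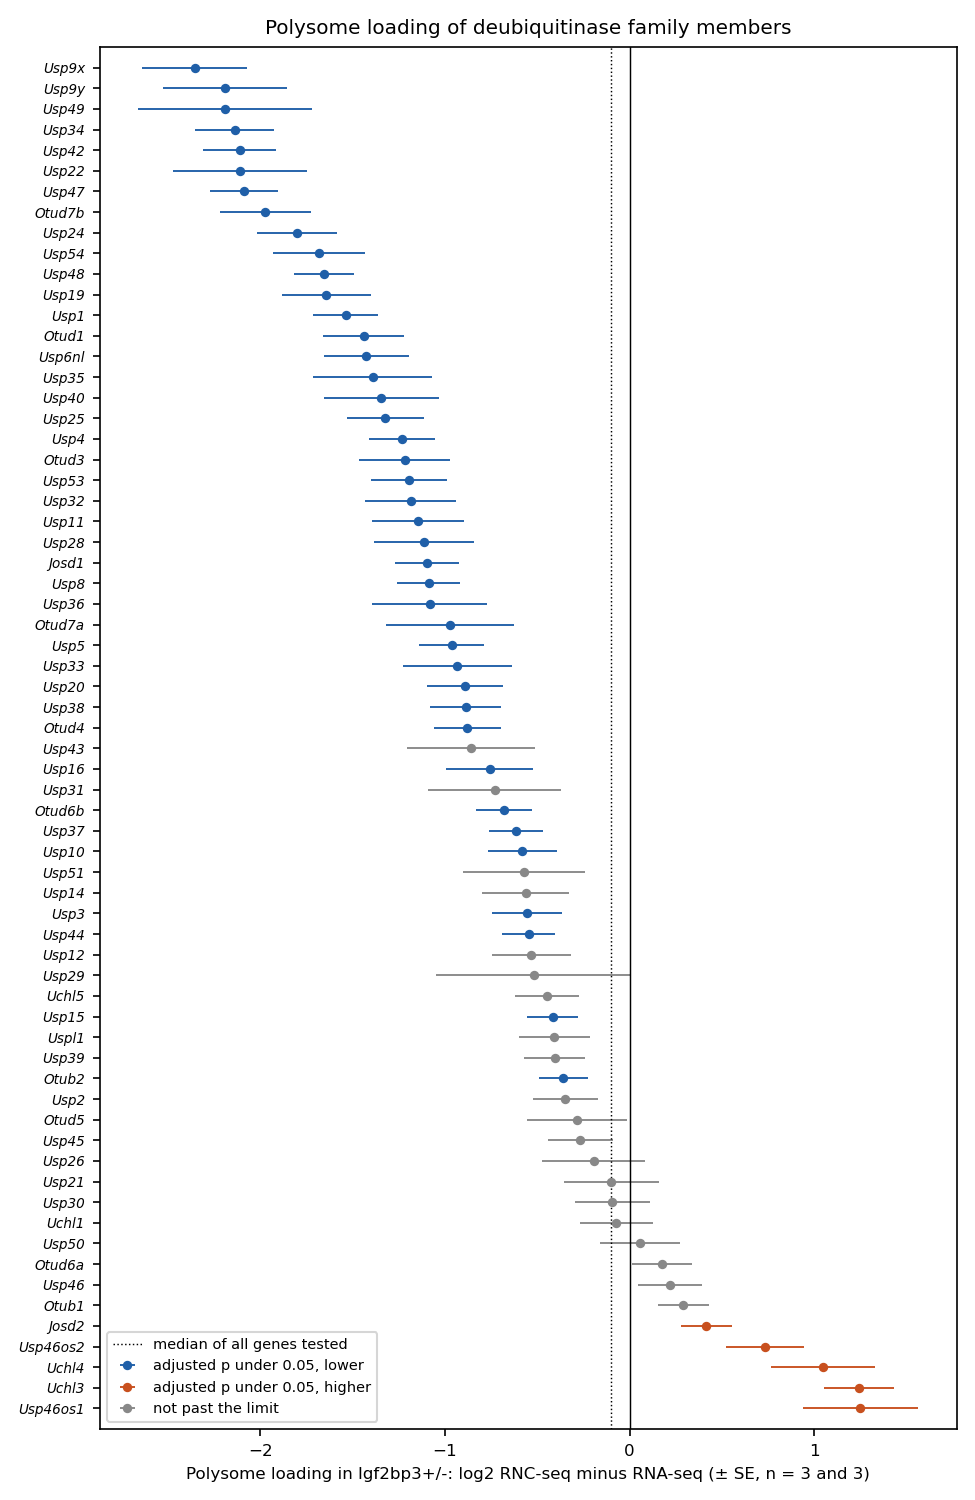
Polysome loading of 66 members in Igf2bp3+/- as the log2 difference of RNC-seq and RNA-seq (± SE, 3 libraries each), coloured by whether the adjusted p was under 0.05 in limma, with the median of all genes dotted. The 41 members called lower reach down to Usp9x at -2.36, and the 5 called higher lie between Josd2 at 0.41 and Usp46os1 at 1.25.

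The members were also grouped by role, and differences between the groups were not tested, nor was the part of coding length in them. All 6 members with roles in endosomes and membrane traffic (Usp8, Usp9x, Usp10, Usp20, Usp33 and Usp6nl) were lower, with a median of -1.01, where 25.2% of all genes were lower. Usp8 went from 91.8 ± 4.19 FPKM in RNA-seq to 43.4 ± 5.30 in RNC-seq (-1.09 ± 0.17). Of 8 tested histone H2A and H2B deubiquitinases, 6 were lower, with a median of -0.67, and the exceptions were Usp21 (-0.10 ± 0.26) and Usp51 (-0.57 ± 0.33). Usp44, the most abundant of that group, was at 150.3 ± 14.4 FPKM in RNA-seq and 103 ± 9.26 in RNC-seq without overlap (-0.55 ± 0.14, limma adjusted p = 0.00702).

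The proteasome-bound pair was close to the limit. Uchl5 had a loading of -0.45 ± 0.17 with an adjusted p of 0.050003 in limma, and Usp14 one of -0.56 ± 0.23 with an adjusted p of 0.0658. In both the RNC-seq libraries lay below the RNA-seq libraries. Of 10 OTU members 7 were lower and none higher, against 25.2% and 18.6% of all genes. The 2 Josephin members parted, with Josd1 at -1.10 ± 0.17 and Josd2 higher as given above. Of the organelle-anchored members, Usp19 of the endoplasmic reticulum was lower (-1.64 ± 0.24) and Usp30 of the mitochondrial outer membrane was at -0.09 ± 0.20. The 2 most abundant members that did not pass were Usp2, at 267, 280.2 and 308 FPKM in RNC-seq (-0.35 ± 0.18, limma adjusted p = 0.129), and Usp50, at 153, 115 and 155 FPKM (0.06 ± 0.22).

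Loading moved with the length of the coding sequence. Over 64 coding members, Spearman's rho of loading with the longest annotated coding sequence was -0.66 (Pearson's r with its log2 -0.70), and over 12858 genes with a coding sequence rho was -0.54 (r -0.55). These are correlations across genes, which share the same libraries and are not independent replicates. The members are long, with a median coding length of 2523 bases against 1320 over all such genes. Among the 22 members with more than 3000 coding bases, 19 were lower (71.8% of all genes of that length), with a median of -1.33 against -1.12. Among 18 members of 2000 to 3000 bases, 15 were lower (50.7% of all), with a median of -0.91 against -0.60. Among 14 members of 1000 to 2000 bases, 4 were lower (27.5% of all), and the medians were -0.47 and -0.24. The 10 shortest members, with up to 1000 coding bases, split into 3 lower and 3 higher. Their median was 0.05 against 0.28, and 10.9% of all genes of that length were lower. The share of genes of that length that were higher was not taken, and over genes of any length it was 18.6%. The 3 higher were Josd2, Uchl3 and Uchl4, and reads can be split between Uchl3 and Uchl4. Within each length class the median member thus lay below the median gene, by less than in the comparison of the whole family, and the part of length in the result was not tested.

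**Figure D3:**
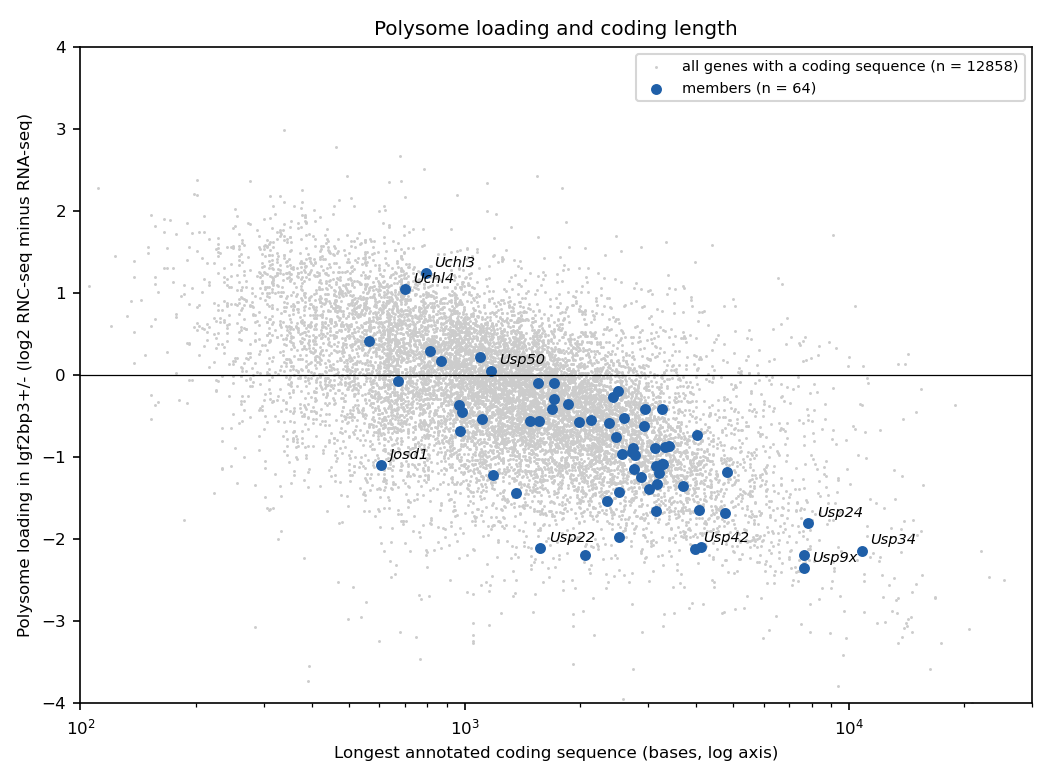
Polysome loading in Igf2bp3+/- (log2 difference of RNC-seq and RNA-seq) against the longest annotated coding sequence in bases (log axis) for 64 members (blue) over 12858 genes (grey), of which 6 fall outside the axes. Loading falls with length in both, from Uchl3 and Uchl4 at the upper left to Usp34 and Usp9x at the lower right, and Josd1 and Usp22 lie low for their length.

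On the log2(FPKM + 0.1) scale the median loading was -0.76 for the 15 members above 30 FPKM, -0.68 for the 19 between 10 and 30, -0.89 for the 21 between 1 and 10 and -0.93 for the 11 between 0.1 and 1. Of these, 11, 11, 13 and 6 were lower, where 25.2% of all genes at any level were lower. The pseudocount draws low values together, and by the plain ratio of mean FPKM the median RNC-seq level was 58.8%, 62.2%, 53.5% and 36.1% of the RNA-seq level in the same order. The values of 14 members are uncertain, which are those with near-identical copies, with at least 10% of exonic bases shared with another gene, the noncoding RNAs and Usp6nl. They are Uchl1, Uchl3, Uchl4, Usp1, Usp14, Usp29, Usp33, Usp34, Usp38, Usp43, Usp46os1, Usp46os2, Usp49 and Usp6nl. Without them, 35 of 52 were lower and 1 was higher (25.2% and 18.6% of all genes), with a median of -0.89. Replicate numbers 1, 2 and 3 gave member medians of -0.85, -0.92 and -0.71 in Igf2bp3+/-.

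Other genes of ubiquitin metabolism, taken from a list, are given for comparison. The list was fixed by gene name, but with earlier results of these data known. Of 19 tested deubiquitinases outside the naming rule, 6 were lower and 2 higher in RNC-seq, against 25.2% and 18.6% of all genes. Their median was -0.19, and the difference from the members was not tested. The 6 lower were Alg13 (-1.48 ± 0.16), Pan2 (-1.03 ± 0.23), Mysm1 (-1.03 ± 0.37), Zranb1 (-0.98 ± 0.22), Vcpip1 (-0.82 ± 0.17) and Cyld (-0.71 ± 0.27). Of the 2 higher, Stambpl1, a metalloprotease for lysine-63-linked chains, went from 38.3 ± 2.98 to 69.5 ± 15.0 FPKM (0.84 ± 0.17). The other, Cops5, the catalytic subunit of the COP9 signalosome, went from 79.5 ± 8.34 to 110.0 ± 24.8 FPKM (0.45 ± 0.16). Of 13 partners of members, 5 were lower and 2 higher, beside the same shares of all genes. Wdr48, the activating subunit of Usp1, Usp12 and Usp46, went from 147 ± 2.47 to 54.7 ± 4.19 FPKM (-1.43 ± 0.19), beside Usp1 at -1.54 ± 0.17, Usp12 at -0.53 ± 0.21 and Usp46 at 0.22 ± 0.17, of which Usp1 alone passed, and its reads may be shared with its near-identical copy. Eny2, a small subunit of the SAGA deubiquitinase module, had the opposite sign from Usp22, at 1.46 ± 0.28. The ubiquitin genes Ubb (0.72 ± 0.15) and Rps27a (1.17 ± 0.21) were higher in RNC-seq, and the ubiquitin-activating enzymes Uba1 (-1.38 ± 0.25), Uba1y (-1.26 ± 0.21) and Uba6 (-1.04 ± 0.25) were lower.

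The comparison of the genotypes asks whether loss of Igf2bp3 changed the abundance or the polysome association of these mRNAs. In RNA-seq, 0 of 66 members passed an adjusted p under 0.05 in limma, where 0.197% of all genes were higher and 0.059% lower in Igf2bp3-/-. Without adjustment, 3 members were higher and 8 lower at a p under 0.05, against 10.4% and 5.32% of all genes, and 3 of these also differed by more than 1.5-fold (5.45% of all genes). The genotypes had no overlap for 6 members that were higher in Igf2bp3-/- (14.1% of all genes) and for 12 that were lower (8.68%). By sign 29 members were higher (56.2% of all genes) and 37 lower (43.8%), and the median log2 change was -0.05, against 0.05 over all genes. The count of 0 held under each alternative that kept the adjusted limit.

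Of the named members in RNA-seq, Uchl3 and Usp50 stood higher in Igf2bp3-/-. Uchl3 was at 143, 162 and 185 FPKM in Igf2bp3-/- against 124, 112 and 110.4 in Igf2bp3+/-, a log2 change of 0.50 ± 0.11 (SE, unadjusted p = 0.00165, adjusted p = 0.152 in limma). Usp50 was at 165, 178 and 192 FPKM against 130.3, 158 and 118, a change of 0.40 ± 0.12 (adjusted p = 0.203 in limma). The genotypes did not overlap in either, although the highest Igf2bp3+/- library of Usp50 came close to the lowest Igf2bp3-/- library. The summed markers of round spermatids and of Leydig cells moved in the same direction, as given above, and their part in these values was not tested.

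In the other direction stood several members of low loading. Loading and the RNA-seq change share the Igf2bp3+/- RNA-seq libraries, so a low loading and a lower RNA-seq level are not independent observations. Usp54 was at 2.43, 2.31 and 1.96 FPKM in Igf2bp3-/- against 3.10, 3.44 and 3.22 (-0.53 ± 0.14, unadjusted p = 0.00536, adjusted p = 0.186 in limma). Usp53, its relative, was at 2.08, 1.95 and 2.17 against 2.68, 2.93 and 2.91 (-0.44 ± 0.14). Usp42 was at 39.0, 35.8 and 32.7 against 41.7, 45.8 and 44.5 (-0.30 ± 0.10). These 3 showed no overlap, and none passed the adjusted limit. Usp47 (-0.22 ± 0.08), Usp1 (-0.26 ± 0.11) and Otud1 (-0.59 ± 0.18, at 1.08 to 1.37 FPKM against 1.58 to 2.21) showed none either. Over all alternatives, adjusted p-values ranged from 0.0859 to 0.592 for Uchl3 and from 0.122 to 0.673 for Usp54. Usp35 is a member but was not among those named by p, because its mean lies under 1 FPKM, and it is given after its values were seen. It was at 0.168 to 0.300 FPKM against 0.534 to 0.830 (-1.22 ± 0.28, adjusted p = 0.157 in limma).

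**Figure D4:**
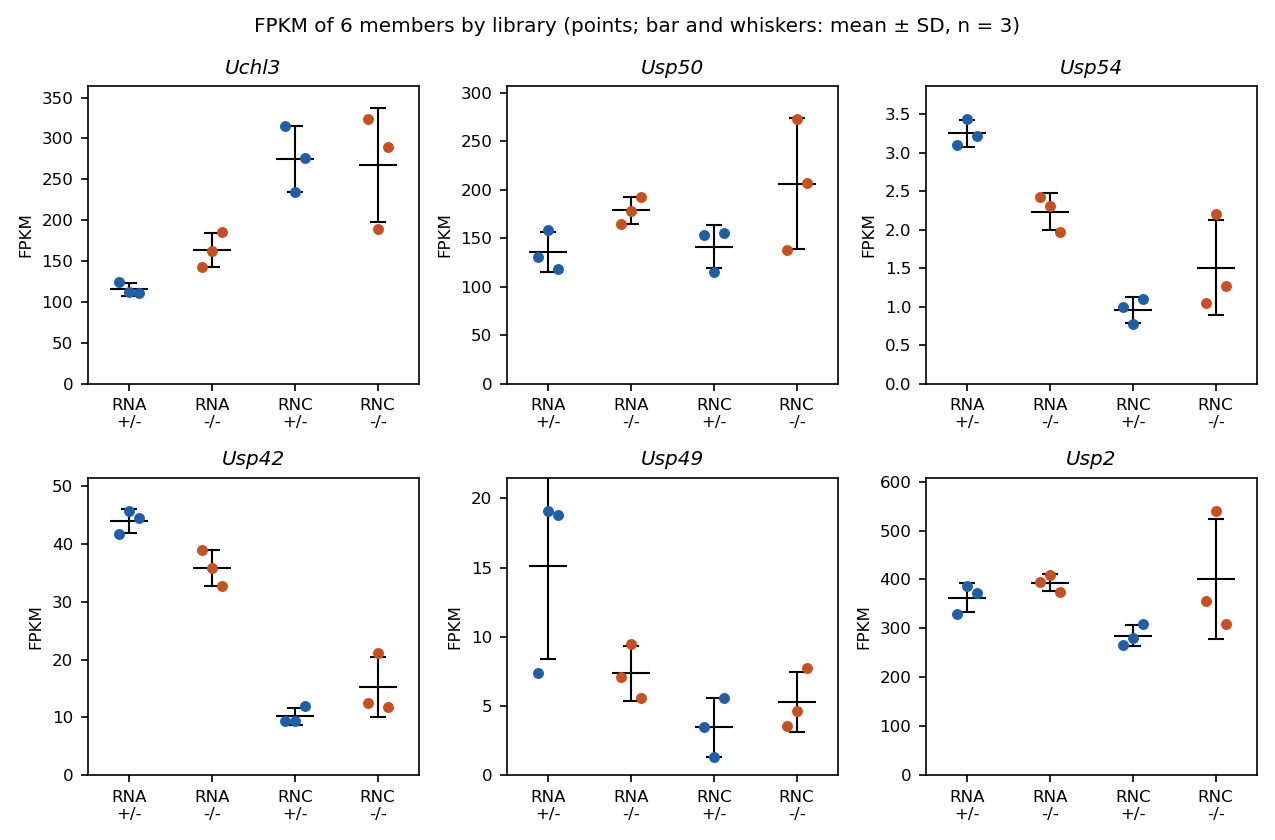
FPKM of 6 members in each library, by assay (RNA, RNC) and genotype (Igf2bp3+/- in blue, Igf2bp3-/- in orange), with the mean and SD of 3 libraries in black and axes that start at 0. The genotypes separate in RNA-seq for Uchl3, Usp50, Usp54 and Usp42, and in RNC-seq only for Usp2, by a small margin, with 1 Igf2bp3-/- library well above the other two in Usp50, Usp54, Usp42 and Usp2.

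In RNC-seq, 0 of 66 members passed in limma, where 0.0787% of all genes were higher and 0.0367% lower. Without adjustment, 0 members had a p under 0.05, against 5.36% of all genes on the higher and 1.12% on the lower side, and 0 met that p with a change over 1.5-fold (5.78% of all genes). The genotypes did not overlap for 7 members that were higher (9.44% of all genes) and for 1, Usp35, that was lower (1.85%). By sign alone 59 of 66 members were higher in Igf2bp3-/-, against 65.3% of all genes. The median log2 change was 0.23 for members and 0.13 for all genes. Marker genes of other stages moved between the genotypes too. The elongating spermatid markers were higher in Igf2bp3-/- RNC-seq for 6 of 7 (median 0.44) and in RNA-seq for 2 of 7 (-0.15), and the spermatocyte markers for 2 of 7 in RNC-seq (-0.29) and 6 of 7 in RNA-seq (0.13). Their part in the members' values was not tested. With each library centred on its median, which brings all genes to 0.01, the members' median was 0.11 and 48 were higher, and with quantile normalization 43 were higher.

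Part of this pattern moved with a single library. Igf2bp3-/- replicate 2 was the highest of the 6 RNC-seq libraries for 38 of 67 members, and for 29 of 52 members with a mean above 1 FPKM, against 26.5% of all genes with such a mean. In that library the members took 0.363% of the summed FPKM, against 0.253 to 0.274% in the other Igf2bp3-/- RNC-seq libraries. Without it, 51 of 64 members were higher and the median was 0.15, where 67.8% of all genes were higher with a median of 0.14. Without Igf2bp3-/- replicate 3, 57 of 66 were higher with a median of 0.35, where 63.9% of all genes were higher with a median of 0.15. A further value that differed between the genotypes was the share of 1 annotated transcript, CT010467.1, which took 15.9 to 19.4% of the summed FPKM in Igf2bp3+/- RNC-seq and 8.14 to 14.6% in Igf2bp3-/- RNC-seq. Its part in the members' values was not tested.

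The size of single members shows the same spread. Usp2 was at 356, 541 and 309 FPKM in Igf2bp3-/- RNC-seq against 267, 280.2 and 308 in Igf2bp3+/-, without overlap but by a narrow margin. Uchl3, the most strongly loaded coding member, was at 324, 189 and 289.9 FPKM against 315, 234 and 276, a change of -0.07 ± 0.24 that had a sign opposite to its RNA-seq change. For Usp54 the RNC-seq values were 1.05, 2.20 and 1.27 against 0.993, 0.770 and 1.10 FPKM. In 33 members the signs were lower in RNA-seq and higher in RNC-seq, in 26 higher in both, in 4 lower in both and in 3 higher in RNA-seq and lower in RNC-seq. Of all genes, 56.2% were higher in RNA-seq and 65.3% in RNC-seq. The joint split was not taken over all genes, and these signs count changes of any size.

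**Figure D5:**
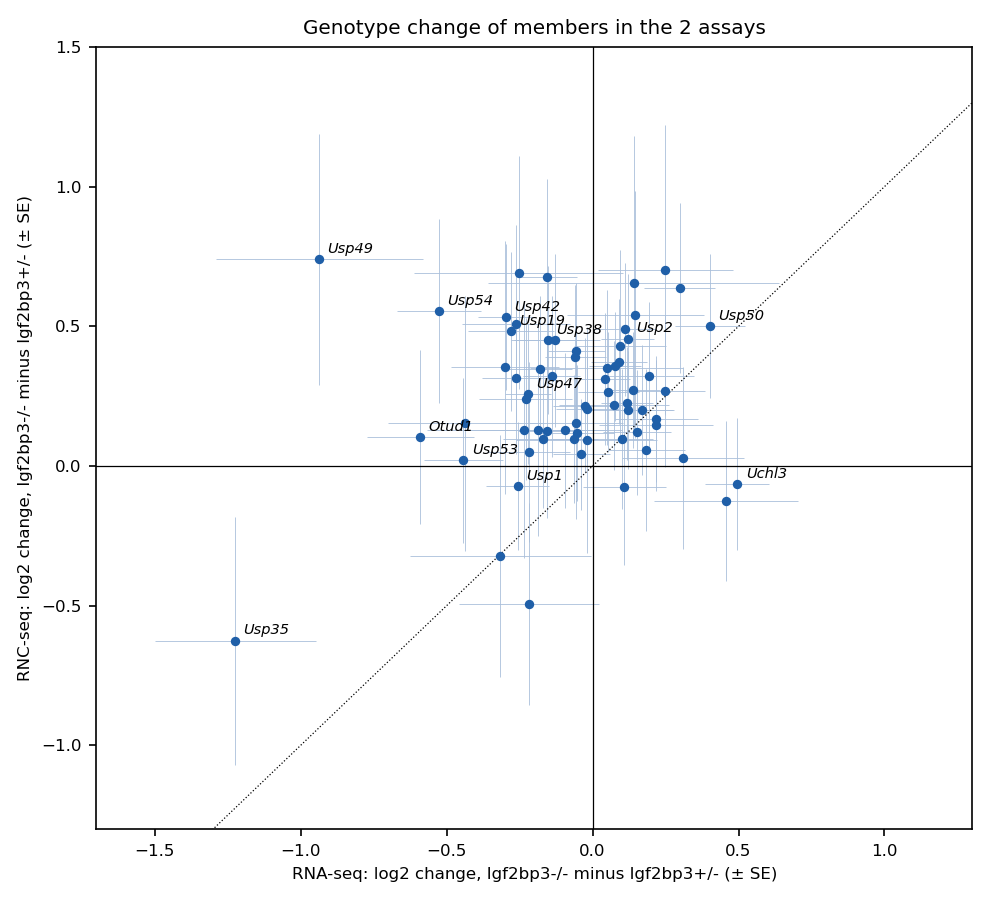
Log2 change between genotypes (Igf2bp3-/- minus Igf2bp3+/-, ± SE) of 66 members in RNA-seq (x axis) and RNC-seq (y axis), with equality dotted. Most points lie above the dotted line, with Usp49, Usp54 and Usp42 among the farthest above it and Uchl3 below it, and no member passed the adjusted limit in either assay.

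Translational efficiency (TE), here the RNC-seq level over the RNA-seq level, was compared between genotypes as the interaction of genotype and assay. No member passed (0 of 66 in limma), where 0.00543% of all genes were higher and 0% lower. Without adjustment, at a p under 0.05, 6 members were higher in Igf2bp3-/- (5.54% of all genes) and 0 lower (1.58%), and all 6 changed by more than 1.5-fold (6.55% of all genes). By sign 55 of 66 were higher, against 55.6% of all genes, with a median log2 change of 0.28 against 0.06. The log2 TE of same-numbered libraries did not overlap, with Igf2bp3-/- higher, for 12 members (9.63% of all genes), and with Igf2bp3-/- lower for 1, Usp10 (3.02%). By the ratio of mean FPKM, with no test, 17 members had a TE over 1.5-fold higher (18.6% of all genes) and 1 a TE over 1.5-fold lower (8.45%). The median member was loaded at 70.5% of its RNA-seq level in Igf2bp3-/- and at 54.7% in Igf2bp3+/-, while all genes went from 93.2% to 97.5%.

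The labels do not say that equal numbers mark 1 sample in both assays, so that values by number are a description. By replicate, the member medians of log2 TE were -0.63, -0.28 and -0.71 in Igf2bp3-/- and -0.85, -0.92 and -0.71 in Igf2bp3+/-, so that replicate 2 of Igf2bp3-/- stood above the rest and the genotypes overlapped by a narrow margin. Without the RNC-seq library of that replicate, 48 of 64 members were higher and the median was 0.15, where 57.1% of all genes were higher with a median of 0.06. Without Igf2bp3-/- replicate 3 in both assays, 57 of 66 were higher with a median of 0.40, where 59.7% of all genes were higher with a median of 0.13. With libraries centred on their medians, 47 of 66 were higher with a median of 0.15, where 44.2% of all genes were higher with a median of -0.07.

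The 6 members past the unadjusted limit were Usp54, Usp42, Usp49, Usp19, Otud1 and Usp38. Usp54 had a TE change of 1.08 ± 0.35 (SE, unadjusted p = 0.00855, adjusted p = 0.686 in limma), with log2 TE of -1.14, -0.07 and -0.60 in Igf2bp3-/- against -1.55, -2.02 and -1.47. For Usp42 the change was 0.83 ± 0.28 (adjusted p = 0.686 in limma), with log2 TE of -1.63, -0.76 and -1.46 against -2.15, -2.29 and -1.89. In both, the lowest Igf2bp3-/- replicate was still above the highest Igf2bp3+/- replicate, and replicate 2 was the highest. Usp19 (0.76 ± 0.34), Otud1 (0.69 ± 0.31) and Usp38 (0.60 ± 0.27) had smaller changes, and that of Usp49 (1.68 ± 0.66) rests on the scattered values given above. Over all alternatives the adjusted p ranged from 0.397 to 0.9997 for Usp54 and from 0.353 to 0.9997 for Usp42. These changes share the Igf2bp3+/- libraries with the loading described above, so that a low loading there and a positive TE change are not independent observations.

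Of all genes tested, 55.6% had a positive TE change, with a median of 0.06. Among groups, the OTU members had a median TE change of 0.39 with 9 of 10 positive, and the UCH members one of -0.30 with 1 of 4 positive. The UCH median rests on Uchl3 (-0.56) and Uchl4 (-0.58), between which reads can be split, beside Uchl5 at -0.03 and Uchl1 at 0.14. Differences between the groups were not tested. The histone H2A and H2B deubiquitinases had a median of 0.28, with 7 of 8 positive and 2 at an unadjusted p under 0.05, Usp42 and Usp49. The sex-linked members, Usp9x, Usp11, Otud5, Otud6a, Usp26 and Usp51 on X and Usp9y on Y, had a median of 0.30 with 4 of 7 positive. Usp9x, with 4.08, 8.80 and 4.19 FPKM in Igf2bp3-/- RNC-seq against 3.17, 2.32 and 4.82, had a change of 0.84 ± 0.40, within which the libraries overlapped in RNC-seq. Among the 19 deubiquitinases outside the naming rule the median TE change was 0.06 with 11 positive, and among 13 partners it was 0.12 with 8 positive. These counts, like that of the sex-linked members, lie near the share of all genes. None of the genes in these lists passed the adjusted limit for TE in limma.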

How the data were processed

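The deposited table holds FPKM for 12 libraries. The authors trimmed reads with Trim Galore 0.6.6, aligned them to GRCm38 with HISAT2 and quantified them with StringTie 2.1.7, per the labels and the study's methods; the labels name a directional poly(A) kit and a Hi-seq instrument while the methods name the STRT-seq protocol and a DNBSEQ instrument, and use of strand in quantification is not stated. The members and gene lists were chosen with earlier results of these data known, and 1 family member and some genes of the other lists are not reported here. Of 28668 symbols, 25 turned into dates (0.0995% of FPKM) were left out, and 27839 matched GENCODE M21.

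From the deposited FPKM, log2(FPKM + 0.1) was fitted across all genes with a mean FPKM above 0.1 (TE and loading: in both assays) with limma 3.58.1 in R 4.3.3, with an intensity trend, two-sided tests and Benjamini-Hochberg adjustment over all genes at 0.05. On this scale the change of low genes is understated. Genotype was tested within the 6 libraries of an assay. TE and loading used 1 fit over 12 libraries. Columns named WT are the Igf2bp3+/- libraries by the labels. Copies were found with BLAST 2.17.0 (at least 95% identity over 50% of the longest transcript). Named were the 10 most abundant members, some fixed by role, up to 8 per genotype comparison by p (unadjusted p under 0.05, mean of at least 1 FPKM, no overlap) and the 8 highest and lowest called for loading. The fit was tested on simulated data.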

Additional observations from a re-analysis of the deposited data

How the results depend on the processing

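No member passed the adjusted limit for the genotype comparisons in RNA-seq, RNC-seq or TE under any alternative that kept that limit: another pseudocount, no filter or a stricter filter, centring, quantile normalization, library weights, another set of libraries in the fit, and each replicate left out in turn. Where p was not adjusted (under 0.05, over 1.5-fold), the count was 3 in RNA-seq, 0 in RNC-seq and 6 in TE, and with the ratio of mean FPKM over 1.5-fold and no test it was 18 in TE, 17 of them higher in Igf2bp3-/-. The count for loading was 46 and ranged from 37 to 47 with a replicate left out, without Igf2bp3+/- replicates 1 or 2 at the low end. No member named by its p or by a called loading changed sign in the comparison that named it. Other values given above, such as small changes that did not pass, were not all followed, and their signs can change. The median loading of the members was -0.52 with a pseudocount of 1, -0.58 among genes with a mean above 1 FPKM, -0.70 after centring and -0.70 without Igf2bp3+/- replicate 2. The median RNA-seq change was -0.11 with quantile normalization. The causes were not tested.

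Replicate numbers are shared between groups. Between assays, libraries of a genotype that share a number deviated from their group means with a correlation of -0.10 to 0.21 over 12265 genes, and 4 of 6 libraries correlated best with their own number. Between the genotypes in RNC-seq, the highest such correlation was 0.525, for libraries with different numbers. The tests take libraries as independent, and the part of this correlation in them was not tested. By the study's methods the input and the polysome RNA of a sample came from a shared lysate, but the labels do not say that equal numbers mark 1 lysate, and the numbers were not taken as pairs. With the replicate block, 45 members were called for loading (40 lower, 5 higher), and 0 in each genotype comparison. The depth of the libraries is unknown, and members under 1 FPKM are the least precise.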
